A study of Mus musculus with 2 samples.

Results

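The 65 genes described here encode proteins of autophagy and of vacuolar sorting. They are the protein-coding genes of GENCODE M21 whose symbols begin with Atg or Vps and a digit, together with Becn1, Ulk1, Ulk2, Map1lc3a, Map1lc3b, Gabarap, Gabarapl1, Gabarapl2, Ccz1, Mon1a and Mon1b, out of 21938 protein-coding genes on the chromosomes of the peak list. Their GABPα peaks come from ChIP-seq of CD4+ T cells, purified with magnetic beads from C57BL/6 mice that the labels give as wild type. An antibody to GABPα gave 1 ChIP library, and 1 library of input DNA served as its control in the peak calling. The age and number of the mice are not given in the sources used here, and a list of peaks holds no expression from which the purity of the cells could be checked. GABPα is the DNA-binding subunit of the Ets factor GABP, and the study asked which genes it binds directly in T cells. The deposited list holds 6782 peak intervals of mm10 with no score, so a gene has a peak or has none, and a peak has a position, a width and a sequence but no height. With 1 library there are no replicates, no test between conditions is possible, and the depth is unknown. The 95% Wilson intervals given with shares of genes cover counting error only. A gene counted as having a peak when an interval lay within 1000 bp of the start of any of its transcripts, and where several did, the widest is described.

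Autophagy encloses cytoplasm in a double membrane that grows into an autophagosome and fuses with the lysosome. A kinase complex around Ulk1 starts the process, a lipid kinase complex with Beclin 1 marks the site, Atg9 and Atg2 supply membrane, and 2 ubiquitin-like conjugation systems attach Atg8 proteins (the LC3 and GABARAP families) to lipid. The Vps proteins take their name from yeast mutants that missort vacuolar proteins. In mammals most of them form complexes that tether endosomes to lysosomes (HOPS and CORVET), sort ubiquitinated cargo into vesicles inside endosomes (ESCRT), return receptors from endosomes (retromer and retriever) or tether vesicles at the Golgi and recycling endosomes (GARP and EARP). The Mon1-Ccz1 complex activates Rab7 on late endosomes and autophagosomes and so serves both routes. Naive T cells are known to need autophagy for their survival.

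A GABPα peak lay within 1000 bp of a start in 31 of the 65 genes (47.7%, 95% interval 36.02 to 59.6), against 3880 of all 21938 protein-coding genes (17.7%). By class, 10 of 27 autophagy genes had a peak (37.04%, 21.5 to 55.8), as did 18 of 33 genes of sorting complexes (54.5%, 38.0 to 70.2), 2 of the 3 Mon1-Ccz1 genes, and 1 of the 2 genes in neither class. The share of autophagy genes was 17.5 percentage points lower, but the 95% interval of this difference, -39.5 to 7.49, includes 0, so autophagy and sorting genes were not separated at this number of genes. The difference also changed direction (48.1% of 54 against 47.3% of 74) when 68 other genes of autophagy and sorting were added to the classes. Many of these 68 belong to complexes or steps with no member among the 65, such as ESCRT-III.

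Starts of the 65 genes were more often CpG-rich than those of all protein-coding genes. A start was called CpG-rich when the 300 bp to either side of the gene's start held at least 50% G+C with an observed to expected CpG ratio of at least 0.6. By this measure 53 of the 65 starts were CpG-rich (81.5%), against 47.1% of all protein-coding genes. Over all protein-coding genes, 31.2% of those with a CpG-rich start had a peak, against 5.67% of the others. That peak could lie at any transcript start of the gene, not only at the start measured. Of the 53 members with a CpG-rich start, 26 had a peak (49.1%, 36.1 to 62.1). This interval lies above the share of all genes with such starts, but the comparison was chosen after seeing the data. Of the 12 members with other starts, 5 had a peak (41.7%, 19.3 to 68.0): Atg4b, Vps39, Vps33b, Vps35l and Vps45. At Atg4b, Vps45 and Vps35l the peak lay 3301, 493 and 320 bp inside the gene, at a transcript start whose composition was not measured. Vps33b missed the limit narrowly, with a CpG ratio of 0.5998. The autophagy and sorting shares among CpG-rich starts were closer than among all starts, at 9 of 20 (45.0%) and 14 of 28 (50%). At the gene's start, which is not always where the peak lay, members with and without a peak had nearly the same composition. Median G+C was 60.1% and 61.7%, and median CpG ratios were 0.82 and 0.84.

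**Figure D1:**
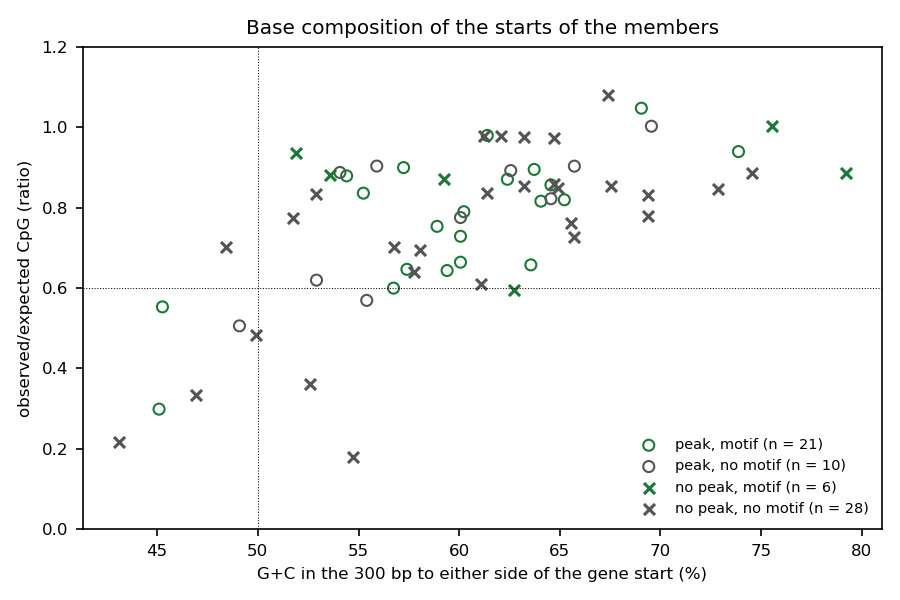
Base composition of the 65 gene starts, with G+C content (%) on the horizontal axis and the observed to expected CpG ratio on the vertical axis, both over the 300 bp to either side of the gene's start. Circles are genes with a peak and crosses genes without one, green marks CCGGAAG within 300 bp of a start, and the dotted lines are the limits of 50% and 0.6. Circles span 45.1 to 73.9% G+C and crosses 43.1 to 79.2%, so the 2 ranges overlap over most of their length.

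Sequences of the widest peak at Ccz1, Mon1b, Becn1, Vps53 and Vps29 are shown because they cover the range found among the 31 genes, from several copies of CCGGAAG, the GABP motif searched on both strands, to the GGAA core alone. Each is read from the GRCm38 reference on the strand of the gene, with the motif in capitals (CCGGAAG, or CTTCCGG where the motif is on the other strand). At Becn1, which holds none, CGGAAG is in capitals, and at Vps29, which holds neither, GGAA and TTCC are.
Ccz1, chr5:144014807-144015043, minus strand: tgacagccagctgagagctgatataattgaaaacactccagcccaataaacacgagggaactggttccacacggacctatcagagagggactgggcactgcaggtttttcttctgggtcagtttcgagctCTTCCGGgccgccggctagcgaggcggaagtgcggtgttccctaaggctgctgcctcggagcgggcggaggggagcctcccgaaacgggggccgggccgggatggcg
Mon1b, chr8:113635658-113635914, plus strand: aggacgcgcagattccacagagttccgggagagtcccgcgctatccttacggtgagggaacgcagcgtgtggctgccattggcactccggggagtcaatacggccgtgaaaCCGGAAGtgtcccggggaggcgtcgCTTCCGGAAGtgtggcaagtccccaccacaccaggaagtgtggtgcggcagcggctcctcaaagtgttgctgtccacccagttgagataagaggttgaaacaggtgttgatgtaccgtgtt
Becn1, chr11:101302151-101302394, minus strand: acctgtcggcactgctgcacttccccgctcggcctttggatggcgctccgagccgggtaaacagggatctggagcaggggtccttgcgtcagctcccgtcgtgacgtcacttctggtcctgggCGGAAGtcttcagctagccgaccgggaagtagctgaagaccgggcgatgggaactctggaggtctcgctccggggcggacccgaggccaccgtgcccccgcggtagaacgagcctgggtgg
Vps53, chr11:76179546-76179733, minus strand: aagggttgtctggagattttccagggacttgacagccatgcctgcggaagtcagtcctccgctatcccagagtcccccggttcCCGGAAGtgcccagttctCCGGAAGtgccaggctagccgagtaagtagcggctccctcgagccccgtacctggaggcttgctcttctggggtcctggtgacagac
Vps29, chr5:122354190-122354351, plus strand: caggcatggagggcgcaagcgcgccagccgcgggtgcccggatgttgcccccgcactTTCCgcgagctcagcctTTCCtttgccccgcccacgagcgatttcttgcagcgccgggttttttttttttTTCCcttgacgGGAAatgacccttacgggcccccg

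The peak at Ccz1 (ENSMUSG00000029617.10, chr5:143987909-144014877, minus strand), which encodes a subunit of the Rab7 activator, was 237 bp wide, at percentile 79.2 of the list, and covered the gene's start. Its CCGGAAG is centred at -33 bp from the start (negative values are upstream) on the opposite strand, and a second Ets core downstream of it reads CGGAAG. Mon1b (ENSMUSG00000078908.10, chr8:113635587-113645179, plus strand), a partner of Ccz1, had a peak of 257 bp with 3 copies of CCGGAAG, the most of the 31 genes. Of these, 2 overlap in the palindrome CTTCCGGAAG, which reads the same on both strands. That peak began 71 bp inside the gene and covered the start of a shorter annotated transcript. Mon1a, the paralogue of Mon1b, had no peak, and the nearest lay 15319 bp away at the start of Rbm6.

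Of the 31 peaks, 18 held CCGGAAG (58.1%, 40.8 to 73.6), which is close to the 57.2% of all 3459 peaks within 1000 bp of a protein-coding start. A further 11 held CGGAAG without the first C, so that 29 of 31 held CGGAAG (93.5%, 79.3 to 98.2), against 76.6% of peaks at protein-coding starts. The remaining 2, at Vps29 and Vps50, held only GGAA cores. The 3459 peaks include narrower second peaks of a gene, which the 31 do not. With all 35 peaks at the members counted, the shares were 60.0% for CCGGAAG and 94.3% for CGGAAG. The 10 autophagy peaks held CCGGAAG in 4 cases, at Atg101, Atg3, Atg16l1 and Gabarapl2, and the 18 sorting peaks in 11. One copy was found in 9 of the 18 peaks, 2 copies in 8 and 3 copies in 1. The copy nearest the peak's midpoint lay a median of 16.5 bp from it and within 50 bp in 15 of 18, and it was on the strand of the gene in 9 and on the opposite strand in 9. In 17 of the 18 this copy lay within 100 bp of the nearest annotated start. The exception was Vps37c, where it was centred at 171 bp.

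Sites in peaks are shown for genes of different complexes, 14 bases to either side of the motif in capitals, on the strand that reads the motif. The peaks at Atg5, Vps4b and Vps39 hold only the form without the first C, and the other sites hold the whole motif.
Atg101, chr15:101284262-101284296, minus strand: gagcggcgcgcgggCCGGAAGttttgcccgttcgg
Atg16l1, chr1:87755992-87756026, minus strand: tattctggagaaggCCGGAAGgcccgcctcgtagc
Atg3, chr16:45158804-45158838, plus strand: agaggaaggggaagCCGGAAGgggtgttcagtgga
Atg5, chr10:44268402-44268435, plus strand: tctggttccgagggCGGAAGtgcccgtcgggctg
Gabarapl2, chr8:111940652-111940686, plus strand: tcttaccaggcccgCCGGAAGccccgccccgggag
Vps18, chr2:119288707-119288741, plus strand: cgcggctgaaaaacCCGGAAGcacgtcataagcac
Vps39, chr2:120353135-120353168, minus strand: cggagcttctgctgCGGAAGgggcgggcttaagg
Vps33b, chr7:80269614-80269648, minus strand: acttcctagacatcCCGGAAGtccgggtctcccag
Vps25, chr11:101253699-101253733, plus strand: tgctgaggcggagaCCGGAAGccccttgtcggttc
Vps4b, chr1:106796670-106796703, minus strand: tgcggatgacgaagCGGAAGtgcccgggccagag
Vps26c, chr16:94526752-94526786, plus strand: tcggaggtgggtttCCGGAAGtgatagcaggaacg
Vps51, chr19:6077214-6077248, minus strand: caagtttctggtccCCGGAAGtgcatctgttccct
Vps52, chr17:33955720-33955754, minus strand: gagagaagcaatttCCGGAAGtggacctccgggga
Vps13b, chr15:35371479-35371513, plus strand: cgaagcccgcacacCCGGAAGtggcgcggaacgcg
Vps45, chr3:96057844-96057878, minus strand: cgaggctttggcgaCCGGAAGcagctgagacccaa

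At Vps51, Vps52, Vps26c, Vps13b and, in the peak shown above, Vps53, the motif is followed by TG. The sites at Vps4b and Atg5 also run on into TG, but lack the first C. In the sites shown for Vps18, Vps45, Vps25 and Gabarapl2 a C follows the motif instead, although the other copy in the Gabarapl2 peak is followed by T. Where CCGGAAG lay within 300 bp of a start but the gene had no peak, which was the case for 6 of the 65 genes, the site nearest a start reads as follows.
Ulk2, chr11:61854488-61854522, plus strand: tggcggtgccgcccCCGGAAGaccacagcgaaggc
Atg2a, chr19:6258197-6258231, plus strand: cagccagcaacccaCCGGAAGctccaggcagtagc
Atg7, chr6:114643120-114643154, plus strand: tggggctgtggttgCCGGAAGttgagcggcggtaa
Atg16l2, chr7:101302357-101302391, plus strand: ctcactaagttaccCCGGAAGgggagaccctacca
Vps11, chr9:44361638-44361672, plus strand: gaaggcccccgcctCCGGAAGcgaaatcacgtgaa
Vps54, chr11:21278041-21278075, minus strand: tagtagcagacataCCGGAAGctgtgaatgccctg

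Position alone did not separate all of these 6 from the genes with a peak: the sites at Ulk2, Atg7 and Vps11 are centred at -3, 6 and -11 bp from an annotated start. The sites at Atg2a, Atg16l2 and Vps54 are farther off, at -127, -123 and 155 bp. Of the 18 copies nearest a peak's midpoint, 17 lay within 100 bp of a start. For Ulk2, Atg2a and Vps54 the nearest start is that of an internal transcript, not the start of the gene as annotated. The genes start at 61855073 (Ulk2, minus strand), 6241668 (Atg2a) and 21239281 (Vps54), so the last 2 sites lie far inside the gene. Only the site at Atg7 is followed by T. The list holds intervals past the study's cutoff, so weaker enrichment at any of these starts would not appear in it.

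CCGGAAG lay within 300 bp of a start in 27 of the 65 genes, and in 4994 of all 21938 protein-coding genes. Of the 27 members with it, 21 had a peak (77.8%, 59.2 to 89.4). Of the 38 genes without it, 10 had a peak (26.3%, 14.97 to 42.0), a difference of 51.5 percentage points (95% interval 27.2 to 67.7). Among all protein-coding genes the shares were 49.9% with the motif and 8.18% without it. When only genes with a CpG-rich start were compared, a choice made after seeing the data, the shares were 78.3% and 26.7% in these genes. In all genes they were 60.4% and 16.0%, and the intervals of the members (58.1 to 90.3 and 14.2 to 44.4) then include these values. The autophagy genes with the motif had a peak in 6 of 10 cases and the sorting genes in 12 of 14. Becn1, Atg4b and Vps16 are the 3 genes in which the window held CCGGAAG while the peak itself did not. With CGGAAG in place of CCGGAAG, 30 of 45 genes with the shorter motif in the window had a peak (66.7%) and 1 of 20 without it (5%), Vps50. Among all protein-coding genes these shares were 35.1% and 4.25%. Without the shorter motif the interval of the members, 0.888 to 23.6, includes the share of all genes, but it is wide and rests on 1 gene with a peak. With a T after the motif, a sequence chosen after these values were seen, 11 of 12 genes had a peak (91.7%, 64.6 to 98.5), against 69.7% of all protein-coding genes with CCGGAAGT in the window. The one without a peak was Atg7. In RefSeq promoters of GRCm38.p6, which are 300 bases long and matched 47 of the 65 genes by symbol, CCGGAAG was in 12 of 55 promoters of these genes (21.8%) and in 8.86% of all 32851.

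**Figure D2:**
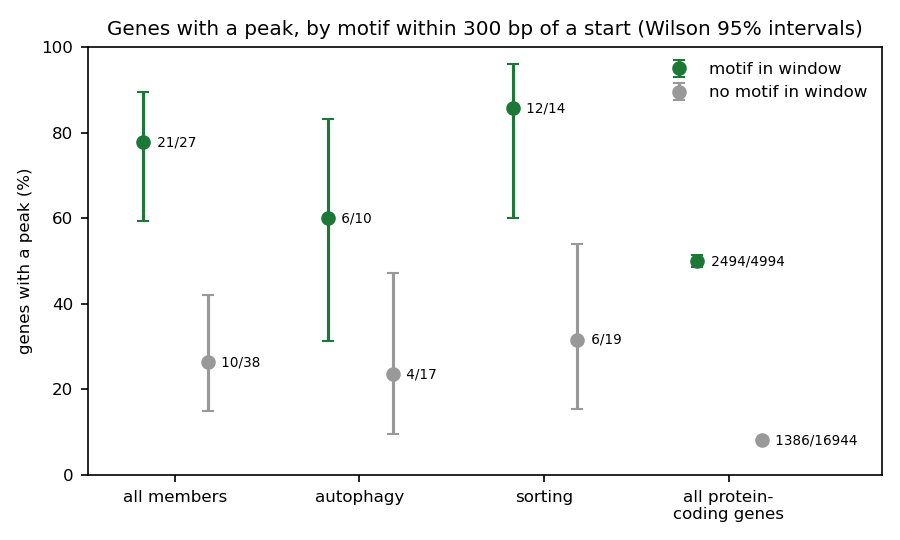
Share of genes with a peak (%, vertical axis) among genes with CCGGAAG within 300 bp of a start (green) and without it (grey), with Wilson 95% intervals and the counts beside the points. In all 4 gene groups the share was higher with the motif, and the members sat above all protein-coding genes in both states (77.8% against 49.9% and 26.3% against 8.18%).

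The ULK complex starts autophagy. Its regulatory subunits Atg13 and Atg101 had peaks and its kinases Ulk1 and Ulk2 had none. The peak at Atg101 was 228 bp wide with 2 copies of CCGGAAG, covered the start, and was joined by another of 158 bp whose end lay 179 bp upstream. The peak at Atg13 was at the minimum width of the list, 104 bp, and was the farthest from a start of all 31, with 224 bp between them, on the side of the divergent gene Harbi1. The start of Rb1cc1, the scaffold of the complex, was covered by a peak of 128 bp. The peaks nearest the starts of Ulk1 and Ulk2 were 16100 and 74918 bp away, at the starts of Ep400 and Akap10.

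Becn1 (ENSMUSG00000035086.13, chr11:101285952-101302286, minus strand) encodes Beclin 1. Its peak of 244 bp, at percentile 80.9, covered the start, with CGGAAG centred at -8 bp from the nearest transcript start. Atg14, which directs the Beclin complex to autophagosome formation, had no peak within 142273 bp, and its start is poor in CpG (ratio 0.33). Among the partners of Beclin 1 that carry other symbols, the lipid kinase Pik3c3, its regulatory subunit Pik3r4, and Uvrag, Nrbf2 and Rubcn had peaks, of 284, 304, 134, 124 and 154 bp, and Ambra1 had none.

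Of the genes for membrane supply, Atg2b, a lipid transfer protein, had a peak of 356 bp that it shares with the divergent gene Gskip, while its paralogue Atg2a and the scramblase genes Atg9a and Atg9b had none. In the conjugation systems, peaks lay at Atg3, the E2 enzyme for Atg8 proteins, and at all 3 genes of the complex that acts as its E3, Atg12, Atg5 and Atg16l1. The peak at Atg12 was the widest of the 31, at 552 bp and percentile 99.4, with 4 CGGAAG and no CCGGAAG, and is shared with the divergent Ap3s1. That at Atg16l1 was 367 bp wide with 2 copies of CCGGAAG, and that at Atg3, shared with Slc35a5, was the narrowest of the group at 142 bp. The E1 enzyme Atg7, the E2 enzyme Atg10 and Atg16l2 had no peak.

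The Atg4 proteases, which trim and recycle Atg8 proteins, had 1 peak in 5 genes. It lay at Atg4b, 3301 bp inside the gene as annotated (ENSMUSG00000026280.17, chr1:93751500-93790610, plus strand), and covered the start of a shorter transcript that faces Thap4. Atg4a, Atg4c, Atg4d and the retrogene Atg4a-ps had none. Of the 5 Atg8 family genes only Gabarapl2 had a peak, of 288 bp with 2 copies of CCGGAAG. Map1lc3a, Map1lc3b, Gabarap and Gabarapl1 had none. Gabarap and Map1lc3b came nearest to the limit of 1000 bp from outside, with peaks 3548 bp and 4595 bp from a start, the former at the start of Phf23. From inside, the farthest were Atg13 at 224 bp and Vps37c at 58 bp.

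**Figure D3:**
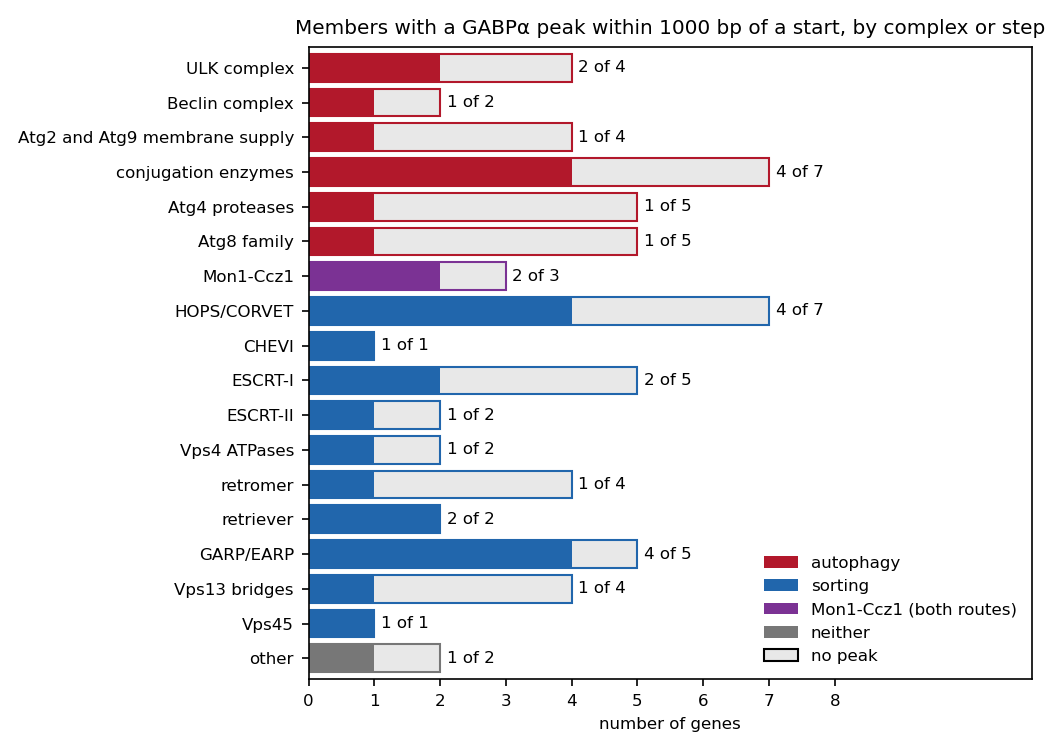
Number of genes with a peak within 1000 bp of a start (filled) and without one (pale) in each complex or step, in red for autophagy, blue for sorting, purple for Mon1-Ccz1 and grey for genes of neither class. The conjugation enzymes and HOPS/CORVET had 4 of 7 each and GARP/EARP 4 of 5, while the Atg4 proteases and the Atg8 family had 1 of 5 each.

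HOPS and CORVET share the core subunits Vps11, Vps16, Vps18 and Vps33a, of which Vps16 and Vps18 had peaks. The HOPS subunit Vps39 and the CORVET subunits Vps8 and Tgfbrap1 had peaks as well, whereas the HOPS subunit Vps41 had none. The widest of the member peaks in this group was at Vps16, at 252 bp, and holds 3 CGGAAG at the paired starts of Vps16 and Pced1a. The narrowest was at Vps18, at 152 bp, and holds a single GGAA core, which is that of its CCGGAAG. Vps33b and its partner Vipas39, which form a separate tether, both had peaks, of 152 and 265 bp, although Vps33a did not.

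GARP and EARP are tethers that share Vps51, Vps52 and Vps53. All 3 shared genes had a peak, as did the EARP subunit Vps50, but not the GARP subunit Vps54, whose start was the richest in G+C of the 65 at 79.2%. At Vps52 (ENSMUSG00000024319.18, chr17:33955812-33967035, plus strand) the peak was 380 bp wide with 2 copies of CCGGAAG and 12 GGAA cores, at the paired starts of Vps52 and the ribosomal protein gene Rps18, and another of 218 bp lay 39 bp from a start. At Vps53 the 188 bp between 76179546 and 76179733 of chromosome 11 hold 2 copies of CCGGAAG in 1 orientation, each followed by TG. Vps51 had 2 peaks, of 227 and 171 bp, each with 1 CCGGAAG. The peak at Vps50, of 170 bp, has 6 GGAA cores and no CGGAAG, and faces Hepacam2.

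The retriever genes Vps35l and Vps26c both had peaks. Of Vps26a, Vps26b, Vps29 and Vps35, counted here with retromer, only Vps29 did, and Vps29 is a subunit of retriever as well. The Vps29 peak was 162 bp wide, held no CGGAAG, and ended 18 bp before the gene, on the side of Rad9b. Vps26c had 2 peaks, of 324 and 142 bp, with 2 and 1 copies of CCGGAAG, and the peak at Vps35l was 191 bp wide and began 320 bp inside the gene at the start of another transcript. The peak nearest Vps26b was 727609 bp away.

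In the ESCRT machinery, the ESCRT-I subunit genes Vps37b and Vps37c had peaks of 173 and 188 bp with 1 CCGGAAG each, and Vps28, Vps37a and Vps37d had none. The founding subunit Tsg101 had a peak of 231 bp. In ESCRT-II, Vps25 had a peak of 297 bp and Snf8 one of 172 bp, but Vps36 had none. Vps4b, an ATPase that disassembles ESCRT-III filaments, had a peak of 300 bp with 3 CGGAAG, and Vta1, the cofactor of Vps4, one of 189 bp. Vps4a, the paralogue of Vps4b, had none, and the nearest peak was 6264 bp from a start at the gene Pdf.

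Of the 4 Vps13 genes, which encode lipid transfer bridges between organelles, only Vps13b had a peak, of 419 bp with 2 copies of CCGGAAG. The peaks nearest to Vps13a, Vps13c and Vps13d were 536176, 523148 and 893603 bp away. Vps45, which controls fusion at endosomes, had a peak of 226 bp with 2 copies of CCGGAAG, 493 bp inside the gene at a shorter transcript's start. Vps9d1 had a peak of 416 bp facing Zfp276, and Vps72, a chromatin protein in spite of its name, had none.

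In 9 of the 13 paralogue families some genes had a peak and others did not, in 0 all did, and in 4 (the Ulk kinases, Atg9, Map1lc3 and Vps26a with Vps26b) none did. Of the 9 families that are pairs, 5 (Atg2, Atg16l, Mon1, Vps33 and Vps4) had 1 gene with a peak and 1 without, and the other 4 had none. No chance value was computed for these counts, and nothing particular to paralogues is read from them. In 28 of the 31 peaks every stretch of 36 bases, as long as 1 read, was unique among the 21 chromosomes, and the lowest share was 88.5%, at Gabarapl2. No peak had more than 22.2% of its bases soft-masked as repeat.

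Widths of the 31 peaks ran from 104 to 552 bp and had a median of 227 bp, against a median of 219 bp for the widest peak at each of the 3880 protein-coding genes with one. The autophagy peaks had a median of 236 bp and the sorting peaks 189.5 bp, with ranges that overlap from 152 to 419 bp. The peak covered a transcript start in 28 genes and the start of the gene as annotated in 23. The 5 that covered only an internal start were those at Atg4b, Vps45, Vps35l, Mon1b and Vps13b, and the 3 that covered none were those at Atg13, Vps29 and Vps37c. The median position of the midpoint was -18 bp from the nearest start (-22 bp over all protein-coding genes with a peak). By annotation of the gene itself, 17 midpoints were in an untranslated exon, 12 upstream of the gene, 1 in an intron and 1 in an exon of a noncoding transcript.

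**Figure D4:**
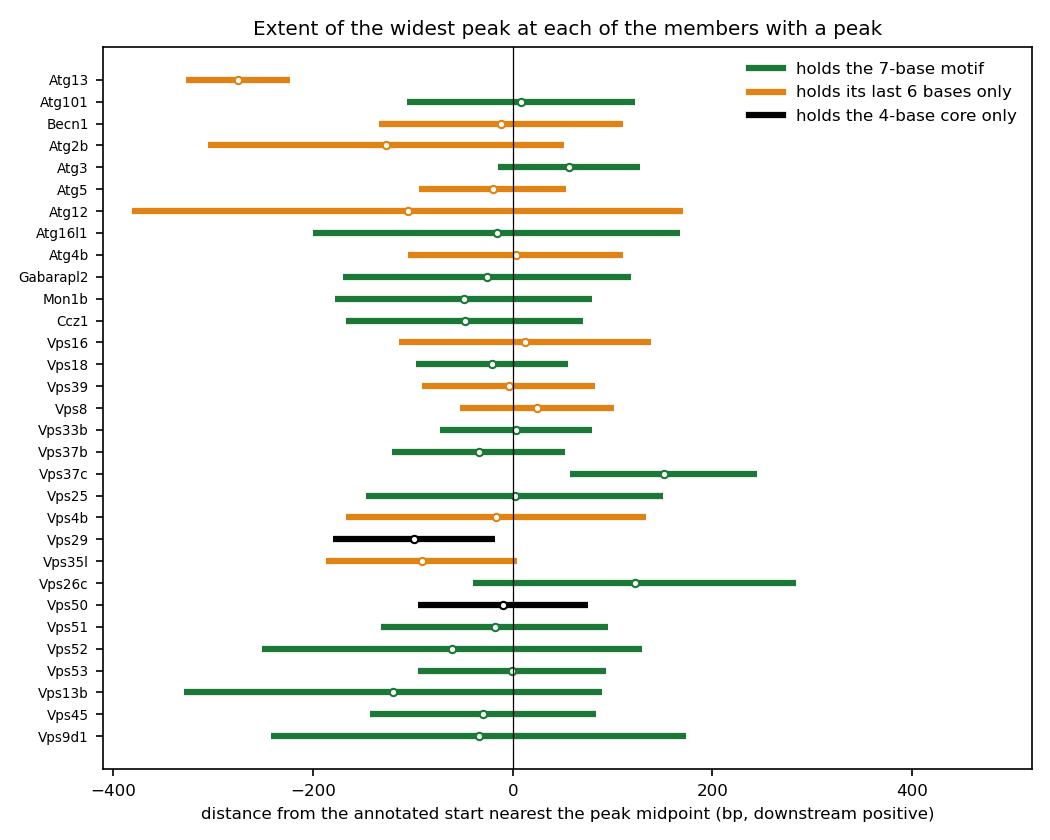
Extent of the widest peak at each of the 31 genes, in bp from the annotated start nearest to its midpoint, with downstream positive and open circles at midpoints. Colours give the longest motif in the peak: green for CCGGAAG, orange for CGGAAG and black for GGAA. All but the peaks at Atg13, Vps29 and Vps37c cross the start at 0.

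A peak between divergent genes cannot be given to one of them. Of the 31 genes with a peak, 14 had a start of a gene on the other strand within 1000 bp (45.2%, 29.2 to 62.2), which is close to the 45.7% of all protein-coding genes with a peak. Only strand and distance were required, so starts that face each other count as well. In 11 the partner was protein-coding: Harbi1, Gskip, Slc35a5, Ap3s1, Thap4, Pced1a, Rad9b, Hepacam2, Rps18, Fam57a and Zfp276. Read the other way, 14 of the 22 genes with such a partner had a peak (63.6%, 43.0 to 80.3), and 17 of the 43 without one (39.5%, 26.4 to 54.4), against 35.7% and 12.4% of all protein-coding genes. Genes with such a partner and no peak included Atg9a with Ankzf1, Atg4a with Psmd10, Vps37a with Cnot7, Vps26b with Ncapd3 and Vps35 with Orc6. Among genes without a partner, a peak lay at 5 of 19 autophagy genes (26.3%) and 11 of 21 sorting genes (52.4%).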

How the data were processed

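GABPα ChIP-seq of wild-type CD4+ T cells (1 ChIP library, 1 input library) was analysed. By the methods and the labels, the authors used Trimmomatic for trimming, Bowtie for alignment to mm10 and MACS2 for peaks against the input; tool versions are not given in the sources used here. The deposited list holds chromosome, start and end only, since all 6782 score fields are empty, so depth is unknown.

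Starts were taken as 0-based and are printed 1-based on mm10 (GRCm38). Genes and transcript starts were from GENCODE M21 on 21 chromosomes, and sequences and soft-masking from GRCm38.p6. Complexes and families were assigned by hand. The genes, lists and comparisons were chosen with earlier results of these data known, and the split of the other genes by complex after their values were seen. Every gene with a peak is named; Ccz1, which the study names, and in each complex the widest and narrowest peaks, mixed paralogue families and motif-holding starts without a peak are described singly. Motifs were exact matches on either strand. Intervals are Wilson, and Newcombe for differences. Gene assignment, motif search and 36-base counting were tested on simulated data. Alternatives covered the window, transcripts, peaks, motif and gene classes. Tools were Python 3.11.15, numpy 2.4.6, scipy 1.17.1 and matplotlib 3.10.9.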

Additional observations from a re-analysis of the deposited data

How the results depend on the processing

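The share of the 65 genes with a peak stayed within its 95% interval under 8 of 9 alternatives, and was 27.7% (10.7% of all protein-coding genes) when only peaks with CCGGAAG were counted, which leaves fewer peaks. It was 43.1% (13.9% of all protein-coding genes) when the peak had to cover a start and 50.8% (19.9%) with a window of 5000 bp. The difference between autophagy and sorting genes ran from -26.1 to 0.851 percentage points over 15 alternatives. The highest value, the only one above 0, came from adding the 68 other genes of autophagy and sorting, many of them outside the members' complexes. This difference was -5.00 points among CpG-rich starts, an alternative chosen after seeing the data. So were the removal of Atg4a-ps (-16.1 points) and of genes with a start on the other strand within 1000 bp (-26.1 points). The share of peaks with the motif was 93.5% for CGGAAG and 100% for GGAA, which are shorter sequences, and 58.1% to 60.0% under the other alternatives. The difference by motif in the window ran from 30.1 to 61.7 points. It was below that of all protein-coding genes for CCGGAAG within 1000 bp (30.1 against 31.5 points) and for CCGGAAGT (53.9 against 56.8). Under the other alternatives it was above, most with CGGAAG (61.7 against 30.9). No paired analysis was possible because there is 1 library. The counts of 1 to 7 genes in a complex are too small to rank complexes.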

Other observations

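Among 68 other genes of autophagy and sorting, 33 had a peak within 1000 bp of a start (48.5%, 95% interval 37.1 to 60.2). These were 16 of 27 on the autophagy side (59.3%) and 17 of 41 on the sorting side (41.5%). Over all protein-coding genes the share was 17.7%, and it was 31.2% for those with a CpG-rich start. The 68 genes include the partners named above. Of the WIPI proteins, which read the lipid made by the Beclin complex, Wipi2, Wdr45 and Wdr45b had peaks, of 179, 361 and 331 bp, and Wipi1 had none. Both scramblase genes of the endoplasmic reticulum, Vmp1 and Tmem41b, had peaks, of 431 and 256 bp. Among the SNAREs of autophagosome fusion, Snap29 and Ykt6 had peaks and Stx17 and Vamp8 did not, while Rab7, the target of Mon1-Ccz1, had a peak of 325 bp. The cargo receptor genes Nbr1 and Tax1bp1 had peaks, but Sqstm1 and Optn did not, and neither did Tfeb and Tfe3, which encode transcription factors of lysosomal genes.

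On the sorting side, 4 of 11 ESCRT-III genes (Chmp1a, Chmp2a, Chmp4b and Chmp5), 2 of 3 ESCRT-0 genes (Hgs and Stam2) and 4 of the 12 genes of the CCC complex that works with retriever (Commd1, Commd2, Commd5 and Commd6) had peaks. Only Snx3 did among 6 sorting nexin genes.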
